A study of Mus musculus with 9 samples.

Results

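Histone cluster genes are mostly replication-dependent histone genes, most of which lie side by side in the genome. Their messages were followed in poly(A) RNA of mouse intestinal stem cells. Members were the genes whose GENCODE M21 symbol on GRCm38 begins with Hist1h, Hist2h, Hist3h or Hist4h, without the 1 symbol marked as a pseudogene, and that had at least 10 counts summed over the 9 libraries. Of 67 such genes in the tables, 52 met that limit, out of 46517 genes in all. The members coded for linker histone H1 (6 of 6 genes), H2A (12 of 20), H2B (12 of 16), H3 (11 of 12) and H4 (11 of 13). Just inside the limit lay Hist1h1t with 13 counts, and just outside it Hist1h2aj with 9 and Hist1h2bf with 8. Of the 15 left out, 9 had no count in any library, and 2, Hist1h2aj and Hist1h2al, are typed as pseudogenes by GENCODE in spite of their symbols.

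The 3 groups were intestinal stem cells embedded in Matrigel, in a non-degradable gel of polyethylene glycol (PEG) or in a degradable PEG gel, with 3 libraries each taken on day 4. Matrigel is a basement membrane extract of a mouse tumour, and the PEG gels are synthetic networks. Cells of every group received valproic acid, a histone deacetylase inhibitor, beside CHIR99021, a GSK3 inhibitor, and the growth factors R-spondin, noggin and EGF. Nothing in the labels gives the strain, the age of the mice or whether replicates were separate cultures, so p-values measure only the spread between these libraries.

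Histone H1 binds the linker DNA between nucleosomes, and H2A, H2B, H3 and H4 form the nucleosome core. Cells make most of these messages in S phase, and the messages typically end not in a poly(A) tail but just after a short stem-loop, which the stem-loop binding protein Slbp holds during cleavage and translation. Some cluster genes also give longer, polyadenylated messages that end at a later site, mostly in cells that leave the cycle. A kit that selects poly(A) RNA therefore reads this family through whatever polyadenylated transcripts it makes, and in the crypt, where stem cells cycle, such a library is no measure of total histone mRNA.

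The stem-loop was present in members with high and with low counts. The motif searched was a run of 16 bases that begins with GG, ends with CC and has T as its letters 6 and 8 and A as letter 11, on the coding strand in up to 100 bases after the stop codon of each annotated transcript. Of the 38 members with at least 60 annotated bases there, 34 held it, starting 22 to 55 bases after the stop codon, with a median of 32. Among 20185 other genes with 100 such bases, 0.872% held it. The letters fell into 6 distinct sequences, of which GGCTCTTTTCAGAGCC was found in 18 members. The sites below belong to 4 members that rose in PEG gels, to Hist1h4i, the H4 gene with most counts, and to Hist4h4, the one member whose PEG gels lay furthest apart. Capitals mark the 16 bases of the motif and lower case 5 bases on each side, read 5′ to 3′ as DNA from the GENCODE M21 transcripts.
Hist1h1c: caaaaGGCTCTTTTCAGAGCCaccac
Hist1h1d: caaacGGCTCTTTTCAGAGCCaccca
Hist1h2be: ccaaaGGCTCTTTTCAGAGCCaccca
Hist3h2a: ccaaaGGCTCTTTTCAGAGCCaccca
Hist1h4i: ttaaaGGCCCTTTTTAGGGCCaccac
Hist4h4: acaaaGGCCCTTTTCAGGGCCcacaa

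The 4 printed members that rose carried the same 16 letters, and the printed H4 genes carried others. Those 16 letters were also in Hist1h1e, and in Hist3h2ba, Hist1h2bg, Hist1h2bj and Hist1h3d, which were tested and not called. Hist1h1b, which also rose, had no annotated bases after the stop codon. The members without the motif among those 38 were Hist1h2bc and Hist2h2be, with 7095 and 4038 counts, and Hist1h3g and Hist1h4a. Hist1h2bc has only a spliced annotated transcript, and the search read its spliced bases alone. A match describes these letters only, and the files do not show where a message ended. The annotated transcript went on for 840 bases past the motif in Hist1h1c, 4884 in Hist1h1d, 1861 in Hist1h2be, 1643 in Hist3h2a, 330 in Hist1h4i and 2445 in Hist4h4. In all, 10 members had a transcript ending over 500 bases past the motif, and 12 had the polyadenylation hexamer AATAAA in the last 40 bases of an annotated transcript.

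Counts were concentrated in few members. Hist1h1c took 46.1% of all member counts, and the 6 members with most counts took 87.8%. The 18 members with at least 300 annotated bases after the stop codon held 93.2% of the counts, and 12 of them had 100 counts or more. Of the 34 members with shorter annotated ends, 6 reached 100 counts, and the set held 6.85% of the counts. Annotation length and measured RNA are not independent here, since a longer exon collects more reads. Per kilobase of exon, the median level was 0.292 counts per M assigned reads in the longer set and 0.221 in the shorter set. The ranges were 0.0602 to 30.8 and 0.0381 to 2.82.

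**Figure D1:**
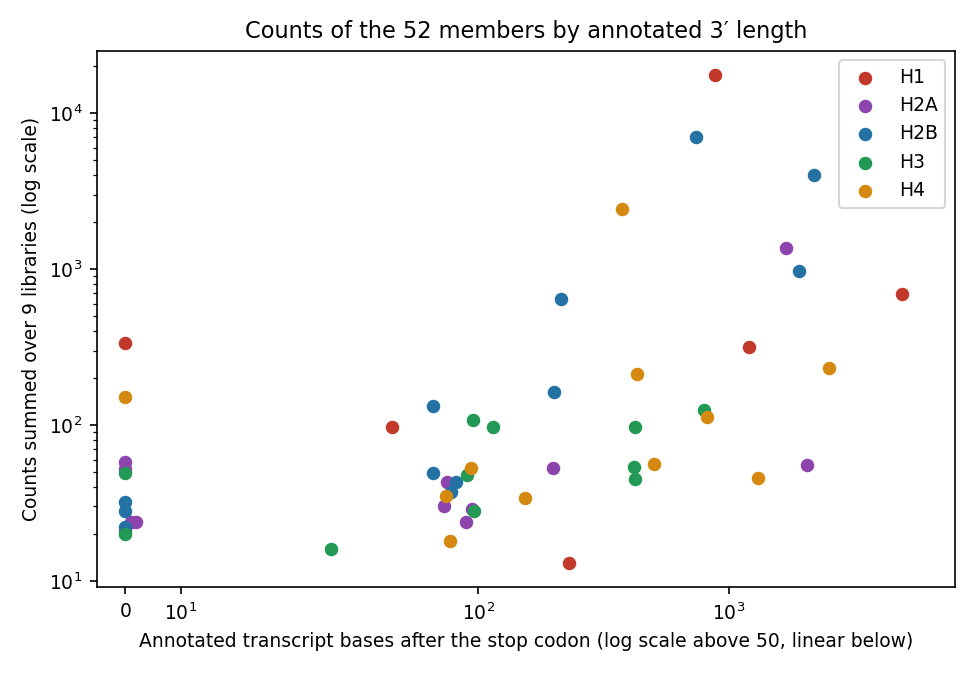
Each point is 1 of the 52 members, coloured by histone type, with the annotated transcript bases after the stop codon on the x axis (linear up to 50, logarithmic above) and the counts summed over 9 libraries on a logarithmic y axis. The 3 members with the highest counts, at 17581, 7095 and 4038, have more than 300 annotated bases after the stop codon.

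Per kilobase of exon, Hist1h1c was also first, at a mean of 30.8 CPM (counts per M assigned reads, after scaling of the library sizes) over the 9 libraries. Hist1h2bc followed at 16.6 CPM per kilobase, Hist1h4i at 8.99, Hist2h2be at 4.17, Hist3h2ba at 2.82 and Hist3h2a at 1.73. Hist1h4k, Hist1h1b, Hist1h2bj and Hist1h4j completed the first 10, at 1.34, 1.25, 0.783 and 0.730 CPM per kilobase. The top of the order thus held 1 linker gene, 3 H2B genes, 1 H4 gene and then 1 H2A gene, while the highest H3 gene, Hist1h3g, stood at 0.555.

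Near-identical copies limit what the lowest members show. The tables keep alignments that are not unique in a row of their own, at 65.2 to 71.8 alignments per 100 assigned reads, so a gene that shares its sequence loses reads. In 21 members at least 50% of all 50-base windows recurred in another annotated gene, and these members held 2.71% of the counts. For the 6 members that rose in PEG gels, that share was between 0 and 8.54%. Of the most abundant members, Hist1h2bc shared 30.6% and Hist1h4i 28.9% of their windows. Of the members tested below, 4 shared at least 50%, so their counts are uncertain. They were Hist1h3e at 73.4%, Hist1h4k at 71.5%, Hist1h2bj at 59.4% and Hist1h3g at 54%.

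The libraries held 38 M to 47.2 M assigned reads. Over the 52 members these gave 2444 to 3374 counts per Matrigel library, 4391 to 6357 per non-degradable and 3523 to 5274 per degradable PEG library. The summed level was 62.6, 71.0 and 72.6 CPM in the Matrigel libraries, 128, 112 and 146 CPM in non-degradable PEG, and 92.6, 114 and 136 CPM in degradable PEG. Every PEG library lay above every Matrigel library, and the PEG groups overlapped each other. The means were 68.7 ± 5.40, 128 ± 17.1 and 114 ± 21.8 CPM (SD, n = 3 each), so that the PEG gels were at 1.87 and 1.66 times Matrigel. No test was made of this sum. In bulk RNA, fewer cells that make a message and less of it per cell cannot be told apart.

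**Figure D2:**
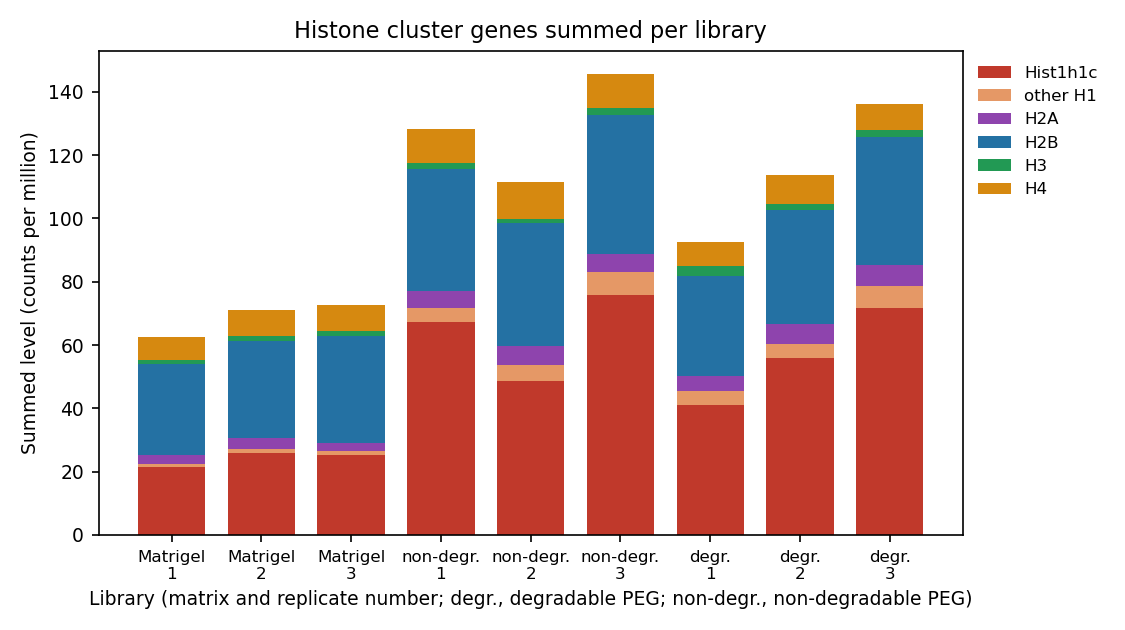
Stacked bars show the summed level of the 52 members in CPM for each of the 9 libraries, split into Hist1h1c, the other 5 H1 genes and the 4 core histone types. The Matrigel bars end between 62.6 and 72.6 and the PEG bars between 92.6 and 146, and the Hist1h1c segment makes most of that gap.

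Linker genes made up most of the difference. The H1 genes summed to 25.4 ± 2.62 CPM in Matrigel and to 69.5 ± 14.9 and 61.5 ± 16.6 in the non-degradable and degradable gels (SD, n = 3), ratios of 2.74 and 2.42. The 46 core histone members summed to 43.4 ± 3.04, 59.0 ± 3.20 and 52.8 ± 5.36 CPM, ratios of 1.36 and 1.22. H1 thus went from 36.8% ± 1.41 of the summed level in Matrigel to 53.7% ± 4.90 in non-degradable and 53.3% ± 4.25 in degradable PEG. Without Hist1h1c the other 5 H1 genes were small, at 1.17 ± 0.345, 5.59 ± 1.48 and 5.21 ± 1.5 CPM, but stood at 4.79 and 4.47 times Matrigel. Within the core types the ratios to Matrigel were 1.90 and 1.96 for H2A, 1.3 and 1.16 for H2B, 1.25 and 1.60 for H3, and 1.40 and 1.07 for H4, in non-degradable and degradable PEG in that order.

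For tests, 21 of the 52 members had enough counts to pass edgeR's expression filter, among 14870 genes tested. The filter kept 5 H1, 1 H2A, 6 H2B, 4 H3 and 5 H4 genes. The other 31 members held 13 to 58 counts each and 2.99% of all member counts. Their summed level was 2.51 ± 0.429 CPM in Matrigel, against 3.24 ± 0.628 in the non-degradable and 3.59 ± 0.929 in the degradable gel (SD, n = 3). A member can pass such a filter through the group in which it is high, so the counts below describe these 21 genes and not the family.

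In non-degradable PEG against Matrigel, 6 of the 21 tested members rose and none fell at an adjusted p under 0.05 in edgeR's quasi-likelihood test, where 16.8% of all genes tested were called and 9.71% were called higher. Those 6 were Hist1h1d, Hist1h1b, Hist1h1e, Hist1h1c, Hist1h2be and Hist3h2a. In degradable PEG against Matrigel, 5 rose and none fell, where 12.2% of all genes were called and 7.42% were called higher. They were the same genes without Hist1h1e. In both comparisons 2 of the 16 tested core genes were called, beside 4 of 5 and 3 of 5 H1 genes. The median log2 fold change of the 21 was 0.46 and 0.62, beside medians over all genes of -0.0021 and -0.016. All 3 non-degradable libraries lay above all Matrigel libraries for 9 of the 21 members and below them for none, beside 21.8% above and 21.6% below over all genes. For degradable PEG 10 lay above and 1, Hist1h4j, below, beside 15.6% above and 14.8% below over all genes. Both comparisons use the same Matrigel libraries, so their calls are not independent.

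**Figure D3:**
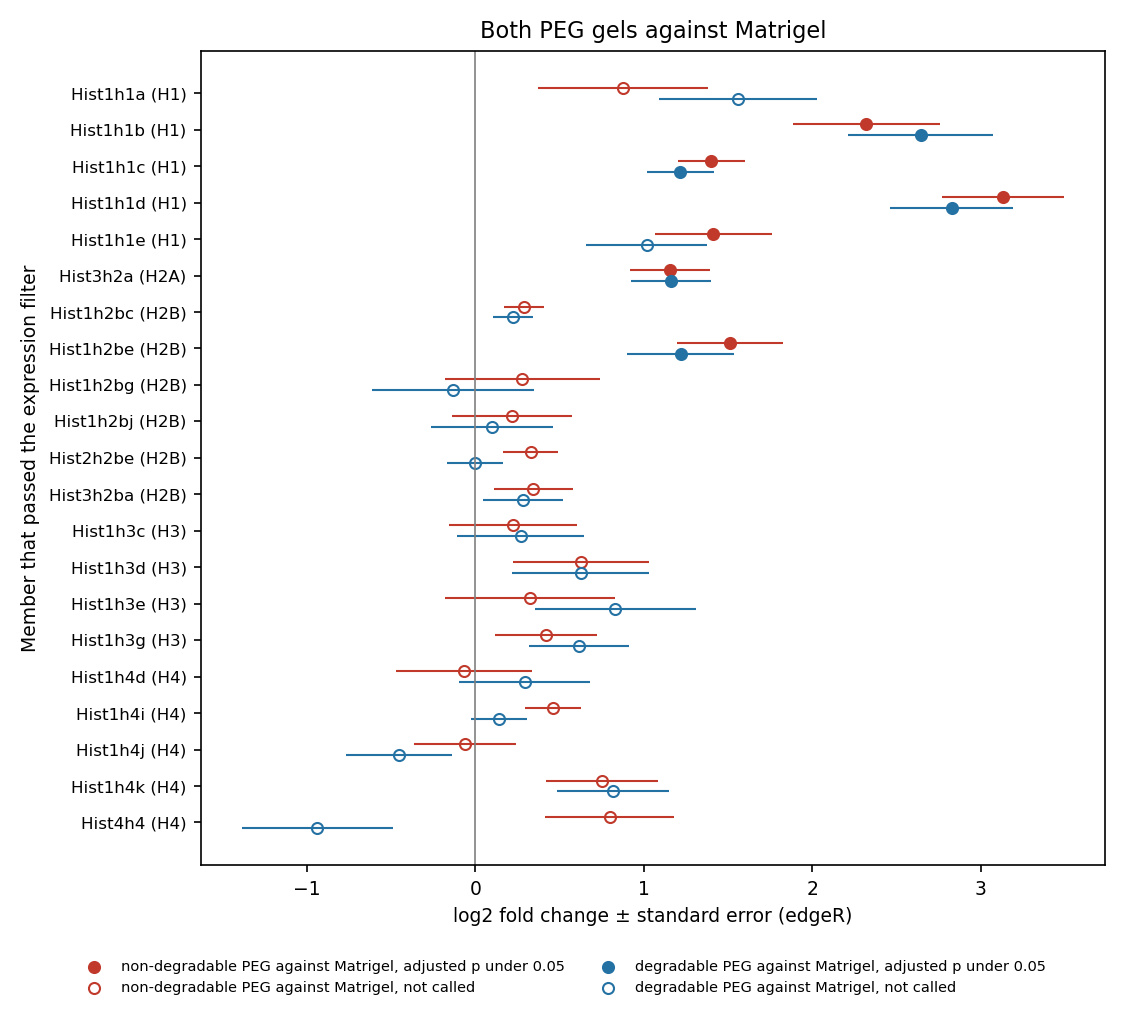
Points give the log2 fold change of each of the 21 tested members against Matrigel, with its standard error, in non-degradable PEG (red) and degradable PEG (blue), ordered by histone type, and filled points have an adjusted p under 0.05. The filled points lie between 1.16 and 3.13, and 7 of the 11 are H1 genes.

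Hist1h1c, a widely expressed somatic linker histone gene on chromosome 13 (23738808 to 23740367, GRCm38), had levels of 21.6, 25.8 and 25.1 CPM in Matrigel. It reached 67.1, 48.7 and 75.8 CPM in non-degradable PEG and 41.0, 56.0 and 71.7 CPM in degradable PEG. The lowest PEG library was above the highest Matrigel library, and the PEG groups overlapped. The log2 fold change was 1.40 ± 0.20 (SE) in non-degradable PEG, with an edgeR adjusted p of 0.000906, and 1.22 ± 0.20 in degradable PEG, with an edgeR adjusted p of 0.00241. In the 1560 exon bases of its single transcript, 8.54% of windows were shared, with Hist1h1d and Hist1h1e.

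Hist1h1d, another somatic linker gene, had 6, 24 and 15 counts in Matrigel, 97, 110 and 155 in non-degradable PEG and 81, 72 and 129 in degradable PEG. As levels these were 0.154, 0.505 and 0.330 CPM, then 2.56, 2.79 and 3.55, then 2.13, 1.78 and 3.33. Matrigel was far below both gels in all libraries. This was the member with the largest log2 fold changes, 3.13 ± 0.36 (edgeR adjusted p = 0.000296) and 2.83 ± 0.36 (edgeR adjusted p = 0.000666). Its annotated transcript (chromosome 13, 23553262 to 23560686) is 7425 bases long, with 1828 before the start codon and 4931 after the stop codon, so the counts may come from any part of a span much longer than a histone coding sequence.

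Hist1h1b is a linker gene of dividing cells whose annotated transcript stops at the stop codon. It had 4, 11 and 15 counts in Matrigel, 30, 44 and 65 in non-degradable PEG and 36, 50 and 81 in degradable PEG. In CPM these were 0.102, 0.232 and 0.330, then 0.793, 1.12 and 1.49, then 0.947, 1.24 and 2.09. No PEG library came down to the Matrigel range. The log2 fold changes were 2.32 ± 0.44 (edgeR adjusted p = 0.00495) and 2.64 ± 0.43 (edgeR adjusted p = 0.00251).

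Hist1h1e, also a somatic linker gene, had 13, 26 and 21 counts in Matrigel, 36, 33 and 79 in non-degradable PEG and 39, 27 and 41 in degradable PEG. In CPM these were 0.333, 0.547 and 0.462, then 0.951, 0.838 and 1.81, then 1.03, 0.668 and 1.06. Both gels lay above Matrigel without overlap. The log2 fold change of 1.41 ± 0.35 in non-degradable PEG passed (edgeR adjusted p = 0.0192), and that of 1.02 ± 0.36 in degradable PEG did not (edgeR adjusted p = 0.0910). Over its 16 alternatives the first had adjusted p of 0.00271 to 0.0887 and was lost without Matrigel replicate 1 (0.0721), Matrigel replicate 3 (0.0524) or non-degradable PEG replicate 3 (0.0887). The second had adjusted p of 0.0411 to 0.243 and was called without non-degradable PEG replicate 3 alone (0.0411).

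Hist1h1a, the remaining tested linker gene, had levels of 0.205, 0.126 and 0.0881 CPM in Matrigel, 0.238, 0.102 and 0.413 in non-degradable PEG and 0.447, 0.421 and 0.362 in degradable PEG. The non-degradable libraries spread over the range of both other groups, and the degradable ones lay above Matrigel. Its log2 fold change was 0.88 ± 0.50 in non-degradable PEG (edgeR adjusted p = 0.254). In degradable PEG it was 1.56 ± 0.47 (edgeR adjusted p = 0.0538), and 7 of 16 alternatives called it, among them those without non-degradable PEG replicate 2 (0.0304) or 3 (0.0304), with adjusted p of 0.0298 to 0.163. Hist1h1t, the testis linker gene, had 13 counts in all and was not tested.

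**Figure D4:**
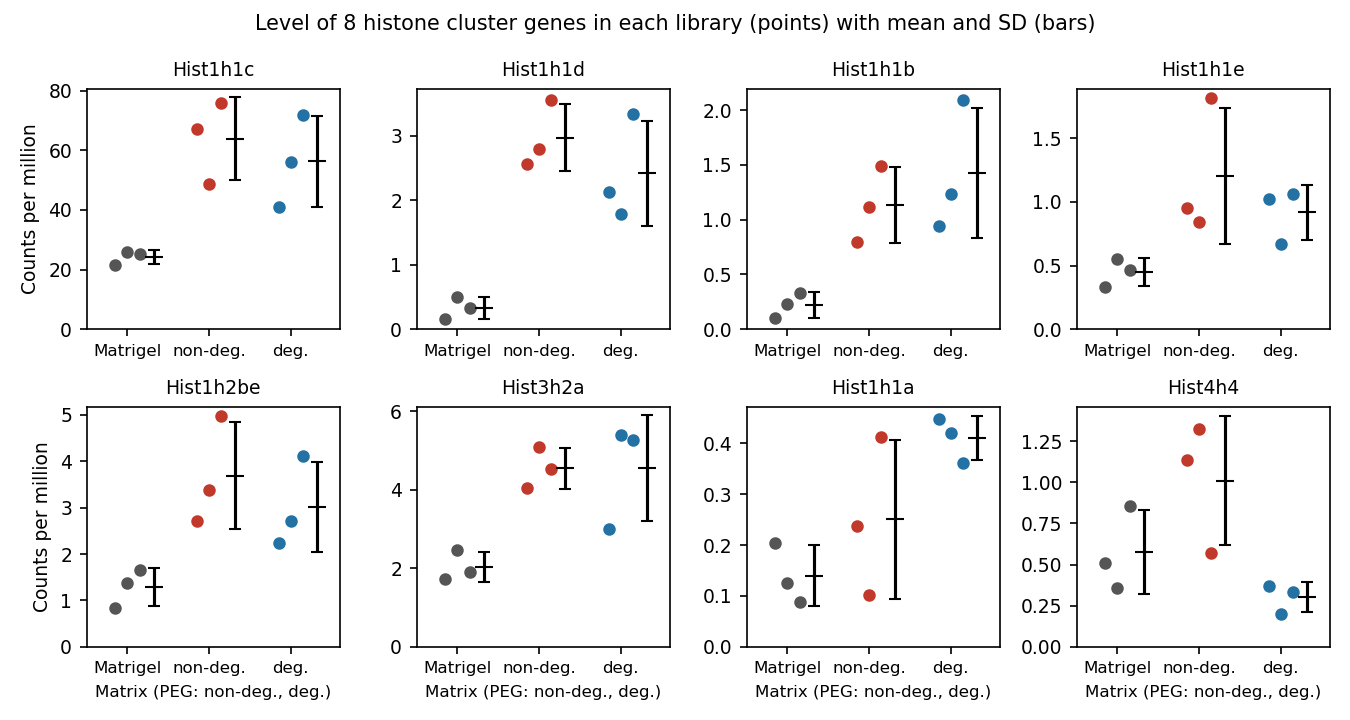
For 8 members each point is the level in 1 library in CPM, in Matrigel (grey), non-degradable PEG (red) and degradable PEG (blue), with the mean and SD of 3 libraries beside them, on axes that start at 0. The PEG points of Hist1h1c, Hist1h1d, Hist1h1b, Hist1h1e, Hist1h2be and Hist3h2a lie above the Matrigel points, and those of Hist1h1a and Hist4h4 do so in part.

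The linker genes share a promoter element that core histone genes rarely carry, and they are printed here because they were the histone type with most calls. RefSeq promoters (GRCm38.p6, from 250 bases before to 50 after the start) were matched for 47 of the 52 members. The H1 box AAACACA was searched on both strands and found in 5 of 6 H1 promoters, in 1 of 12 H2A promoters and in none of the 29 promoters of other members, beside 7.12% of 26965 other promoters. The 130 bases before the RefSeq start follow for 4 H1 genes, 5′ to 3′ on the coding strand. Capitals mark AAACACA, the CCAAT box (CCAAT or its reverse complement ATTGG) and the TATA box (TATAAA or its reverse complement TTTATA).
Hist1h1b, chr13:21780626-21780755, minus strand: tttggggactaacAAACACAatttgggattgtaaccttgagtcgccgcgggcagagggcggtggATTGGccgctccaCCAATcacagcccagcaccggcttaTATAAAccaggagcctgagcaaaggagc
Hist1h1c, chr13:23738677-23738806, plus strand: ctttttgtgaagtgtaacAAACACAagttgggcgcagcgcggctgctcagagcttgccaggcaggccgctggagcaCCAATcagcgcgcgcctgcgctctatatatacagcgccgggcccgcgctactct
Hist1h1e, chr13:23622559-23622688, minus strand: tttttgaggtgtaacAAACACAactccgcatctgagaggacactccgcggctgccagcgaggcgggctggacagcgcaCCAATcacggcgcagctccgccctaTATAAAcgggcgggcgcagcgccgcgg
Hist1h1a, chr13:23763538-23763667, plus strand: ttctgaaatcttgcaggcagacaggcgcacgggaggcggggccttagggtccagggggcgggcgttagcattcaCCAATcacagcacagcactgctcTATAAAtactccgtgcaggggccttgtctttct

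In the first 3 windows the H1 box began 117, 112 and 115 bases before the start, and in Hist1h1d it began 122 bases before. The Hist1h1d promoter is not printed, since the GENCODE transcript begins 1770 bases upstream of the RefSeq start and runs across it. Hist1h1a lacked these letters in its window, and a link of the H1 box to the levels was not tested. Hist1h1t, with 13 counts, held them. A CCAAT box was found in all 6 H1, 12 H2A, 10 H2B and 9 H3 promoters and in 3 of 10 H4 promoters, against 37.8% of other promoters. The octamer ATTTGCAT, on either strand, was found in 6 of 12 H2A and 4 of 10 H2B promoters and in no H1, H3 or H4 promoter, against 1.71% of others. The TATA box, on either strand, was found in 28 of the 47, against 14.1% of others searched in the same way.

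Among H2A genes only Hist3h2a had enough counts to be tested. This gene of the small cluster on chromosome 11 (58954685 to 58956830) had levels of 1.72, 2.46 and 1.92 CPM in Matrigel, 4.04, 5.08 and 4.52 in non-degradable PEG and 3.00, 5.39 and 5.27 in degradable PEG. All PEG libraries exceeded all Matrigel libraries. The log2 fold change was 1.16 ± 0.24 in both gels, with edgeR adjusted p of 0.00777 and 0.00922. Its exons overlap those of Trim17 on the same strand by 708 bases, and Trim17 had 89 counts over all libraries, too few to be tested, beside 1357 for Hist3h2a. Its cluster neighbour Hist3h2ba, an H2B gene, had a log2 fold change of 0.34 ± 0.23 and 0.28 ± 0.23 and was not called (edgeR adjusted p = 0.337 and 0.480).

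Of the 6 tested H2B genes only Hist1h2be was called. It had 33, 65 and 75 counts in Matrigel, 103, 133 and 217 in non-degradable PEG and 85, 110 and 159 in degradable PEG. In CPM these were 0.845, 1.37 and 1.65, then 2.72, 3.38 and 4.97, then 2.24, 2.72 and 4.11, with no overlap between Matrigel and either gel. The log2 fold change was 1.51 ± 0.32 in non-degradable PEG (edgeR adjusted p = 0.00849) and 1.22 ± 0.32 in degradable PEG (edgeR adjusted p = 0.0292). The second call had adjusted p of 0.000779 to 0.113 over 16 alternatives and was lost without Matrigel replicate 1 (0.0981), Matrigel replicate 2 (0.0704), degradable PEG replicate 2 (0.0552) or degradable PEG replicate 3 (0.113).

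Hist1h2be and Hist1h1e lie on the same strand of chromosome 13 and share 816 exon bases, because spliced transcripts of Hist1h2be span 23583670 to 23621124. Ambiguous reads have a row of their own in the tables, so reads of that stretch may be missing from both genes. The sources used here do not give the annotation behind the counts, so how far these calls rest on that stretch is unknown. The H2B genes with the most counts behaved otherwise. Hist1h2bc, with 7095 counts the second of the family, had 16.9, 17.3 and 16.8 CPM in Matrigel, 20.6, 17.7 and 24.1 in non-degradable PEG and 17.4, 20.8 and 21.2 in degradable PEG. Both gels lay above Matrigel, but by little. Its log2 fold changes were 0.29 ± 0.12 and 0.22 ± 0.12 (edgeR adjusted p = 0.114 and 0.254), and the first passed without non-degradable PEG replicate 2 (0.0472), over alternatives of 0.0472 to 0.423.

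Hist2h2be, an H2B gene of the chromosome 3 cluster with 4038 counts and no shared window, had 8.45, 9.96 and 11.8 CPM in Matrigel, 11.9, 14.8 and 11.2 in non-degradable PEG and 8.91, 9.23 and 12.0 in degradable PEG. The 3 groups overlapped. Its log2 fold change was 0.33 ± 0.16 in non-degradable PEG (edgeR adjusted p = 0.191). In degradable PEG the difference was within ± 0.16 of 0 and changed sign between alternatives (edgeR adjusted p = 0.992). The other 2 tested H2B genes, Hist1h2bg and Hist1h2bj, were not called.

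None of the 4 tested H3 genes was called, with log2 fold changes of 0.22 to 0.63 in non-degradable and 0.27 to 0.83 in degradable PEG and edgeR adjusted p of at least 0.225. At an unadjusted p under 0.05 none of the 4 passed either, beside 32.6% and 27.3% of all genes in the 2 comparisons, and DESeq2 called none. Hist1h3d, the H3 gene with most counts, had 0.154, 0.337 and 0.242 CPM in Matrigel, 0.264, 0.305 and 0.573 in non-degradable PEG and 0.368, 0.297 and 0.491 in degradable PEG, with overlap throughout. Its log2 fold change was 0.63 ± 0.40 and 0.63 ± 0.41 (edgeR adjusted p = 0.310 and 0.357). Standard errors of 0.30 to 0.50 in these genes mean that changes of the size seen in Hist1h2bc were not detectable at this depth. Hist1h3e and Hist1h3g may also lose reads to copies, since they shared 73.4% and 54% of their windows with other genes.

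None of the 5 tested H4 genes, all of which code for histone H4, was called in either gel against Matrigel by edgeR. At an unadjusted p under 0.05, 2 of 5 passed in the non-degradable and 1 of 5 in the degradable gel, beside 32.6% and 27.3% of all genes, and DESeq2 called Hist1h4i in the first. Hist1h4i had 4.94, 6.0 and 5.94 CPM in Matrigel, 7.37, 8.51 and 7.38 in non-degradable PEG and 4.94, 7.52 and 6.18 in degradable PEG. Non-degradable PEG lay above Matrigel without overlap, and degradable PEG spanned both. The log2 fold change was 0.46 ± 0.16 in non-degradable PEG (edgeR adjusted p = 0.0775) and 0.14 ± 0.17 in degradable PEG (edgeR adjusted p = 0.629). With the replicate number as a block, the first had an edgeR adjusted p of 0.0202, and 5 of its 17 alternatives called it, over a range of 0.0202 to 0.226, including those without degradable PEG replicate 1 (0.0446) or 2 (0.0476). Hist1h4k, whose annotated exon is the coding sequence alone, had log2 fold changes of 0.75 ± 0.33 and 0.82 ± 0.33 (edgeR adjusted p = 0.144 and 0.139).

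Hist4h4, the single H4 gene on chromosome 6, differed most between the PEG gels. It had 20, 17 and 39 counts in Matrigel, 43, 52 and 25 in non-degradable PEG and 14, 8 and 13 in degradable PEG. As levels these were 0.512, 0.358 and 0.859 CPM, then 1.14, 1.32 and 0.573, then 0.368, 0.198 and 0.336. All non-degradable libraries lay above all degradable ones, while Matrigel overlapped both. The log2 fold change was 0.80 ± 0.38 in non-degradable PEG (edgeR adjusted p = 0.175) and -0.94 ± 0.45 in degradable PEG (edgeR adjusted p = 0.203), both against Matrigel.

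In non-degradable against degradable PEG, edgeR called 0 of the 21 members, where 1.28% of all genes were called, 0.814% higher and 0.464% lower. The libraries of the gels did not overlap for 1 of the 21, Hist4h4, which was above, beside 10% of all genes above and 9.02% below. At an unadjusted p under 0.05 only Hist4h4 passed, 1 of 21 beside 14.8% of all genes, and DESeq2 called 1, the same gene. Its log2 fold change between the gels was 1.74 ± 0.43 (edgeR adjusted p = 0.0858), with adjusted p of 0.00654 to 0.307 over 16 alternatives, and it passed without non-degradable PEG replicate 3 (0.0401). The tested H1 genes differed between the gels by log2 fold changes of -0.68 to 0.40, all with adjusted p of at least 0.489. For Hist1h1c the difference was 0.18 ± 0.19, for Hist1h1d 0.30 ± 0.30 and for Hist1h1b -0.32 ± 0.36 (edgeR adjusted p = 0.681, 0.663 and 0.700). Over the 3 matrices at once, the F test called 7 of 21 members where 16.3% of all genes were called, namely the 6 genes above and Hist4h4 (edgeR adjusted p = 0.0407).

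Other genes within the clusters were few. On chromosome 13 the members lie in 2 stretches, 16 from 21715763 to 22043676 and 27 from 23531050 to 23764406, of which 5 and 12 were tested. In non-degradable PEG against Matrigel 1 of those 5 and 4 of those 12 members were called, beside 16.8% of all genes, and in degradable PEG 1 of 5 and 3 of 12, beside 12.2%. The other tested genes in the stretches were Zfp184, Prss16 and Hfe. Zfp184 fell by 0.40 on the log2 scale in non-degradable PEG (edgeR adjusted p = 0.00659), while Prss16 and Hfe were called in neither gel against Matrigel. In degradable PEG against Matrigel Zfp184 was at -0.02 (edgeR adjusted p = 0.908), and in non-degradable against degradable PEG at -0.38 (edgeR adjusted p = 0.0474). None of these 3 genes was called higher.

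Variant histones replace the cluster histones in chromatin, and most are made from polyadenylated messages outside S phase. Of 11 tested in non-degradable PEG against Matrigel, none was called higher and 4 were called lower, and in degradable PEG none was called higher and 1 lower, with 8 of 11 log2 fold changes negative in each gel. H2afv, an H2A.Z gene, fell by 0.49 ± 0.081 in non-degradable PEG (edgeR adjusted p = 0.00241) and by 0.34 ± 0.081 in degradable PEG (edgeR adjusted p = 0.0201). H2afz, the other H2A.Z gene, fell by 0.27 ± 0.079 in the first (edgeR adjusted p = 0.0364) and macroH2A gene H2afy2 by 0.85 ± 0.25 (edgeR adjusted p = 0.0371). The linker variant H1f0, typical of non-dividing cells, had 895 ± 171 CPM in Matrigel, 1022 ± 122 and 995 ± 191 in the gels (SD, n = 3), with log2 fold changes of 0.19 ± 0.16 and 0.15 ± 0.16 (edgeR adjusted p = 0.439 and 0.581). H2afx and H3f3b were called in no comparison of 2 matrices.

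Genes of histone supply and DNA replication were lower or not called. Of 28 replication genes, 14 were lower and none higher in non-degradable PEG, led by Prim1 and Prim2, the primase subunits, at -0.51 ± 0.077 and -0.35 ± 0.077 (edgeR adjusted p = 0.00150 and 0.0119), and Tyms, thymidylate synthase, at -0.51 ± 0.11 (edgeR adjusted p = 0.0123). In degradable PEG 1 of 28 was lower, Prim1 at -0.33 ± 0.077 (edgeR adjusted p = 0.0184). Of 20 histone chaperones, 9 were lower and none higher in non-degradable PEG, with Rbbp4 at -0.37, Chaf1a at -0.39 and Ssrp1 at -0.36 (edgeR adjusted p = 0.00307, 0.00790 and 0.00869), and none was called in degradable PEG, where 17 of 20 log2 fold changes were negative. Between the gels the chaperone Chaf1b was lower in non-degradable PEG by -0.35 ± 0.068 (edgeR adjusted p = 0.0352). Over all genes, 7.13% were called lower in non-degradable PEG, 4.79% in degradable PEG and 0.464% between the gels.

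A list of 20 genes covered histone gene activation, 3′ end processing and histone mRNA decay. Of these, 1 was called in non-degradable PEG, beside 16.8% of all genes, and none in degradable PEG, beside 12.2%. Slbp had 92.2, 86.8 and 78.5 CPM in Matrigel, 72.3, 75.4 and 64.5 in non-degradable PEG and 79.4, 72.8 and 71.5 in degradable PEG. Its non-degradable libraries lay below Matrigel, with a log2 fold change of -0.28 ± 0.084 (edgeR adjusted p = 0.0424), against -0.20 ± 0.084 in degradable PEG (edgeR adjusted p = 0.143). Npat and Casp8ap2, which switch on histone genes in S phase, were not called, with log2 fold changes of -0.16 to -0.10. Of 16 further genes of cleavage and polyadenylation, none was called in non-degradable PEG and Nudt21 was lower in degradable PEG at -0.35 ± 0.089 (edgeR adjusted p = 0.0262).

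**Figure D5:**
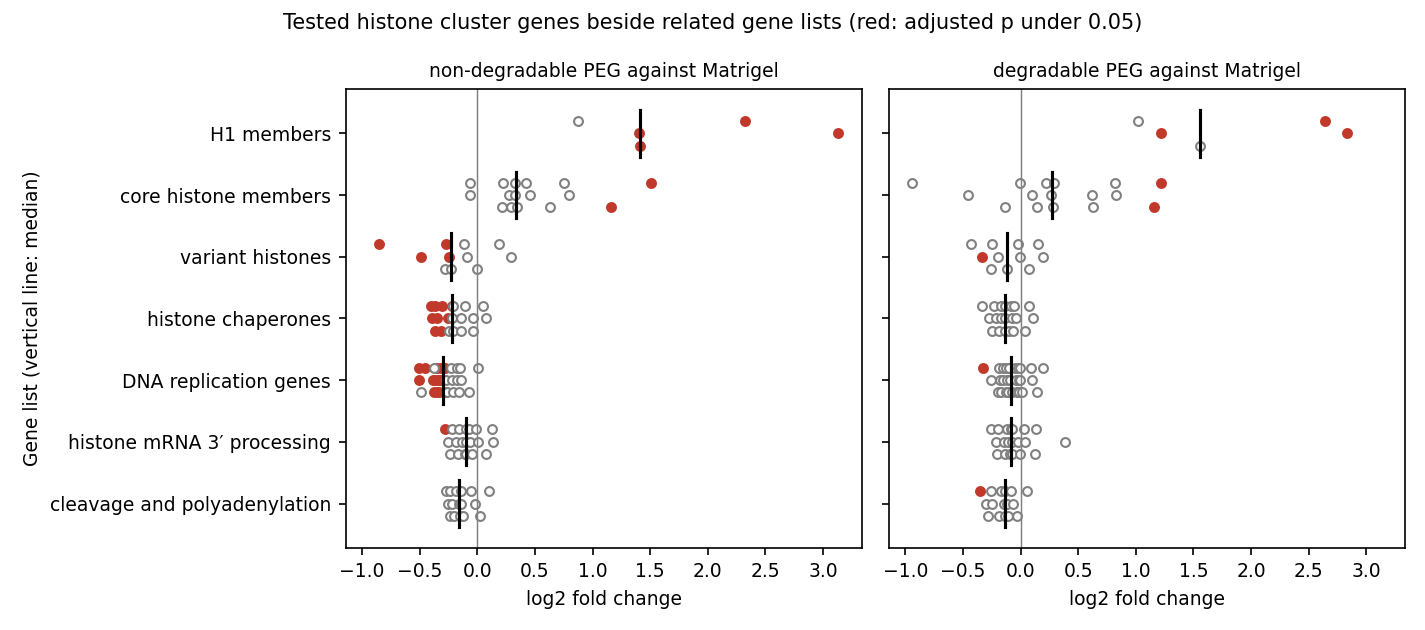
Each point is the log2 fold change of 1 tested gene against Matrigel, in non-degradable PEG (left) and degradable PEG (right), with red points at an adjusted p under 0.05 and a vertical line at each list's median. The medians of the H1 members lie at 1.41 and 1.56, those of the core members at 0.34 and 0.28, and those of the other 5 lists below 0.

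RNAs that normally carry no poly(A) tail are listed beside the histone genes. A level of 0 need not come from the selection, since reads with more than 1 alignment were not counted for any gene. The 14 listed summed to 9.60 ± 2.6 CPM in Matrigel, against 6.28 ± 1.37 in the non-degradable and 9.82 ± 0.880 in the degradable gel (SD, n = 3), and 5 were at 0 in all libraries. Of the 3 tested, Rpph1, the RNA of RNase P, was lower in both gels, at -0.93 ± 0.21 and -0.71 ± 0.21 (edgeR adjusted p = 0.0125 and 0.0460). Rmrp and Rn7sk were not called, with log2 fold changes of 0.14 ± 0.47 and -0.31 ± 0.32 in non-degradable PEG and 1.00 ± 0.43 and 0.66 ± 0.31 in degradable PEG (edgeR adjusted p = 0.871, 0.539, 0.160 and 0.207). The part of such RNA in the histone values was not tested.

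Cell type markers moved with the matrices as well. Paneth cell markers summed to 514 to 1097 CPM in Matrigel, 106 to 193 in non-degradable and 99.1 to 170 in degradable PEG, with 3 of 4 lower in each gel, while Mmp7 of that list was higher in degradable PEG. The 4 enteroendocrine markers, at 87.9 to 146 CPM in Matrigel, were all lower, at 16 to 23.1 and 23.3 to 34.5 CPM. Goblet markers went from 560 to 1014 CPM in Matrigel to 181 to 244 and 128 to 189 CPM, with 2 and 3 of 4 lower. Tuft markers went from 7.75 to 9.63 CPM to 3.03 to 3.53 and 2.97 to 3.71 CPM, with both tested genes lower in each gel. The 5 crypt base stem cell markers summed to 2682 to 2844, 1809 to 1915 and 2179 to 2353 CPM, with 1 higher in each gel and 3 and 1 lower. Intestinal epithelial markers were present in all libraries at 4158 to 5034 CPM, whereas endothelial markers never exceeded 0.211 CPM. Enterocyte markers split the gels, at 40.2 to 88.0 CPM in Matrigel, 52.4 to 109 in non-degradable and 9.42 to 19.8 in degradable PEG. Mesenchymal markers were at 124 to 273, 83.3 to 118 and 92.0 to 158 CPM, with 1 of 3 tested genes, Vim, lower in non-degradable PEG. Most of that sum was Vim, at 120 to 265 CPM in Matrigel. Col1a1 and Pdgfra, the other tested genes, never exceeded 5.73 CPM and had positive log2 fold changes in non-degradable PEG. Blood cell markers were at 1.26 to 1.64, 2.79 to 3.83 and 1.63 to 2.43 CPM, with Itgam, the 1 tested, higher in non-degradable PEG. The part of these markers in the histone values was not tested.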

How the data were processed

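The 9 deposited tables held gene counts. The submitters' processing notes name cutadapt 1.3, STAR 2.4.2a, HTSeq 0.6.1 and the genome GRCm38. Per the labels' protocols, libraries came from a stranded TruSeq mRNA kit, which selects poly(A) RNA. Annotation and strand setting: not given in the sources used here. The 15 members with an exon overlap on the opposite strand are therefore uncertain. The 5 tally rows per table were left out, with featureless reads at 7.29% to 11.2% and ambiguous reads at 1.09% to 1.16%.

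Symbols came from GENCODE M21, and 46005 identifiers matched. Symbols matching the pattern numbered 70, of which 1 pseudogene was left out and 2, Hist1h2bh and Hist1h2bm, were not used here. CPM used TMM-scaled library sizes. Each comparison was a contrast in 1 edgeR 4.0.16 quasi-likelihood fit (R 4.3.3, limma 3.58.1) of all 9 libraries, filtered by filterByExpr, with Benjamini-Hochberg adjustment over 14870 genes and a call at an adjusted p under 0.05. The fit was tested on simulated counts with the same spread for all genes and changes only in genes at higher counts. That simulation therefore does not cover members with few counts, such as Hist1h1b, Hist1h1d and Hist1h1e. Alternatives were DESeq2 1.42.0, other scalings and filters, fits of 2 groups, a replicate block and leaving out each library. Equal replicate numbers pair non-degradable PEG with Matrigel by the correlation of deviations from group means (0.331, 0.176 and 0.186); the sources name no origin of such pairing.

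Named members were those called in any comparison, the 10 highest per kilobase and the highest of each histone type by count; Hist1h1a and Hist4h4 were added after their values were seen. Members, gene lists and tests were chosen with earlier results of these data known.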

Additional observations from a re-analysis of the deposited data

How the results depend on the processing

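With only genes at a mean of at least 5 CPM, 4 members were tested and 1, Hist1h1c, was called in each PEG gel against Matrigel and over the 3 matrices. Between the gels the count of members called went from 0 to 1 with DESeq2 and with no filter, each time Hist4h4. Leaving out 1 library at a time gave 5 to 8 called members in non-degradable PEG, 4 to 7 in degradable PEG, 0 to 1 between the gels (1 without non-degradable PEG replicate 3) and 4 to 8 over the 3 matrices (4 without Matrigel replicate 1). The genes called in every such fit were Hist1h1b, Hist1h1c, Hist1h1d and Hist3h2a for degradable PEG, and these with Hist1h2be for non-degradable PEG. The share of all genes called in each refit is not given beside these counts, so a shift in them is no result about the members. Restricted to members with 1 unspliced transcript, the summed level was 50.4 CPM in Matrigel, 104 in non-degradable and 91.3 in degradable PEG. Signs turned for 4 differences that were not called. Hist2h2be in degradable PEG was 0.036 with upper-quartile scaling, 0.0079 with library size only, 0.016 with the 5 CPM filter and -0.15 to 0.12 with a library left out. Hist1h4i in degradable PEG was -0.017 to 0.28 with a library left out, and between the gels Hist1h1c was -0.0060 to 0.40 and Hist1h1b -0.57 to 0.059.

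With the replicate number as a block, 7 members were called in non-degradable PEG (Hist1h4i added), 6 in degradable PEG (Hist1h1a added), 0 between the gels and 8 over the 3 matrices. The share of all genes called with the block is likewise not given here, so the added members are no result about the family. For the comparisons that include degradable PEG, 4 of 6 same-number correlations lay above 0.1, up to 0.511, and the others were 0.0712 and 0.0197. Libraries of unlike number reached 0.257, so whether the numbers pair these libraries is not settled. Depth limits the low members, where 1 read is worth 0.0212 to 0.0263 CPM, and the cause of the changes above was not tested.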
